A study of Mus musculus with 2 samples.

Results

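Matricellular proteins and small leucine-rich proteoglycans are secreted matrix proteins that tune how cells attach and signal. The 10 genes described here, Tnc, Postn, Thbs1, Thbs2, Ccn1, Ccn2, Sparc, Spp1, Dcn and Lum, were chosen by name out of 21947 genes with probesets among the deposited values. They hold 155 of the 1048575 probesets given there, and the annotation assigns each of the 155 to 1 of these genes alone. The deposited values end at a common spreadsheet limit, so probeset counts cover only those given. Ccn1 and Ccn2 are listed there under their older symbols Cyr61 and Ctgf, and 6 of the 27 probesets of Postn under a clone symbol that is now its synonym. No member shares a probeset with another gene.

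The cells were derived from Bry-GFP mouse embryonic stem cells, whose reporter marks mesoderm. FLK1-positive cells were taken from embryoid bodies on day 3 and cultured either with 300 nM of compound B, an inhibitor of the histone demethylase LSD1, or with the solvent DMSO, the agent field of that sample reading none. On day 2 of culture the CD41-positive compartment was sorted from both cultures, and RNA of each was measured on 1 Affymetrix array. The series concerns the recruitment of LSD1 by Gfi1 proteins during the emergence of blood, and the comparison asks which transcripts differ when LSD1 is inhibited in cells labelled hemogenic endothelium. Everything below describes 2 arrays of 1 cell line, so no difference could be tested, and having so few arrays limits the precision.

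Values are log2 intensities. A probeset was called bright where the higher of its 2 values reached 3.17, the median of the whole table, and a gene was measured with at least 4 bright probesets, as 15087 genes were. A gene's level in an array is the median of its bright probesets, and its difference is the median of their differences, inhibitor minus DMSO, so it can depart from the gap between both levels. An SD is the spread over the probesets of 1 gene and not an error between samples. The size rule asked for a difference of 1 or more, a 2-fold change, with 75% or more of the bright probesets agreeing on its direction. Over all measured genes the median difference was 0.06, and the central 90% lay between -0.50 and 0.68. Of 12 preset markers of hemogenic endothelium and early blood, all 12 were measured, with 3 higher past the rule, none lower and a median of 0.45. Gfi1 (2.43), Cdh5 (2.11) and Gfi1b (1.56) were the higher ones, Kit was at -0.66, and Itga2b, which encodes CD41, was at -0.12. Levels are compared between arrays and not between genes, since probesets differ in how they bind.

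Tenascin C, periostin, the thrombospondins, the CCN proteins, SPARC and osteopontin are called matricellular because they act on cells through integrins and other receptors more than they build the scaffold of the matrix. They are known from remodelling tissue such as wounds, developing heart valves and the stroma of bone marrow, and thrombospondin 1 also from the granules of platelets. Decorin and lumican are small leucine-rich proteoglycans that bind collagen fibrils. Ccn1 and Ccn2 are textbook targets of the coactivators YAP and TAZ, which act through TEAD factors.

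The promoter windows of Tnc and Postn are shown because these genes differed most clearly in opposite directions, and that of Ccn1 because it is a known TEAD target that hardly differed. They are RefSeq windows on GRCm38.p6 from 250 bases before to 50 bases after an annotated start, and windows were given for 6 of the 10 genes (Tnc, Postn, Thbs2, Ccn1, Sparc and Spp1). Capitals mark matches, on either strand, to any of several short motifs. These were GGAATG for the TEAD factors, AAATCA for the Gfi1 proteins, whose sites hold its core, TGTGGT for the RUNX factors, AGATAA for the blood factors of the GATA family, CAGACA for the SMAD proteins of TGF-beta signalling, TGANTCA for the AP-1 complex, TATAAA for the TATA box, and the CArG box of serum response factor, given by its name alone. No marked match overlaps another.
Tnc, chr4:64046966-64047265, minus strand: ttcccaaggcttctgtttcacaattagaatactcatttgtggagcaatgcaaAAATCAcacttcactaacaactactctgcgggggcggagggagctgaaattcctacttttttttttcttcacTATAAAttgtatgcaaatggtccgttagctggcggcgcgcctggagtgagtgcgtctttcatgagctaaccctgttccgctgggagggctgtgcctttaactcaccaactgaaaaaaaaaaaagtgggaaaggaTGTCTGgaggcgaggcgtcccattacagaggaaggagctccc
Postn, first start, chr3:54359017-54359316, plus strand: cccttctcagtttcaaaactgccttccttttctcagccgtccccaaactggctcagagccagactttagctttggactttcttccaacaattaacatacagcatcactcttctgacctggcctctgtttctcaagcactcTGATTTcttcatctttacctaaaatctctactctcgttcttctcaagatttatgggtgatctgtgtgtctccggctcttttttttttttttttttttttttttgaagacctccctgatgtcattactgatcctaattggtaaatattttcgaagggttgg
Postn, second start, chr3:54360857-54361156, plus strand: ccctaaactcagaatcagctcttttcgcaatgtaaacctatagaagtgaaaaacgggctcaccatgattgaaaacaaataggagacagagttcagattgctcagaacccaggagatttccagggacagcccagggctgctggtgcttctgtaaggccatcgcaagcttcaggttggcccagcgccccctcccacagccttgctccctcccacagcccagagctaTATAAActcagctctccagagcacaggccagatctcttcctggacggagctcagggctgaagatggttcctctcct
Ccn1, chr3:145649936-145650235, minus strand: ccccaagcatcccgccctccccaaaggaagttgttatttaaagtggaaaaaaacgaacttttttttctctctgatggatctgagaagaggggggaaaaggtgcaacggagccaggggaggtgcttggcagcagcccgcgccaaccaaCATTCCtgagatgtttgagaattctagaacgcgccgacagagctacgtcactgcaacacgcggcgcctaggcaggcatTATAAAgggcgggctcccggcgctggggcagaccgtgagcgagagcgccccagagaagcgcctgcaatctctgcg

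AAATCA begins 198 bases before the start in the Tnc window shown and, on the opposite strand, 110 bases before the first start of Postn. It also begins 224 bases before the second start of Spp1, which did not pass the size rule. Of all 32851 windows, 4598 hold it. The Tnc window shown also holds TATAAA, 126 bases before the start, and, on the opposite strand, CAGACA, 8 bases after it. A second Tnc window, chr4:64046887-64047186, overlaps it and holds no AAATCA, with TATAAA 205 bases before its start and CAGACA 71 bases before and 39 bases after it. TATAAA begins 26 bases before the second start of Postn and 25 bases before that of Ccn1. It was also found in windows of Spp1 and Thbs2, and at any position it occurs in 13.6% of all windows. CAGACA, in 21.0% of all windows, also lies in those of Spp1, Sparc and Thbs2, and TGTGGT, in 16.8%, in those of Spp1 and Sparc. The TEAD letters, present in 14.7% of windows, were found in that of Ccn1, 103 bases before its start, and in no other window of these 6 genes. None of their windows held the GATA, AP-1 or CArG box letters. These are matches of letters and not measured binding.

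Tnc was the member furthest from 0 and the only 1 higher past the size rule, while Postn, Thbs1 and Dcn were lower past it. The call of Dcn rests on dim values and was lost when all its probesets were kept. Of the 9 measured members, 1 was higher, 3 were lower and 5 were neither. Over all measured genes, 1.72% were higher and 0.563% were lower by the same rule. The median difference of the 9 was -0.64, which is the value of the dim gene Spp1, and 6 of the 9 lay outside the central 90% of genes. Of the 124 bright probesets of the 10 genes, 43 were higher and 81 lower. Tnc gave 25 and Sparc 11 of the higher ones, and Postn and Thbs1 gave 23 each of the lower ones. This count thus follows a few genes with many probesets, and the share over all genes was not computed. The RNA is that of a sorted bulk, so fewer cells of a type and less RNA per cell cannot be told apart.

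**Figure D1:**
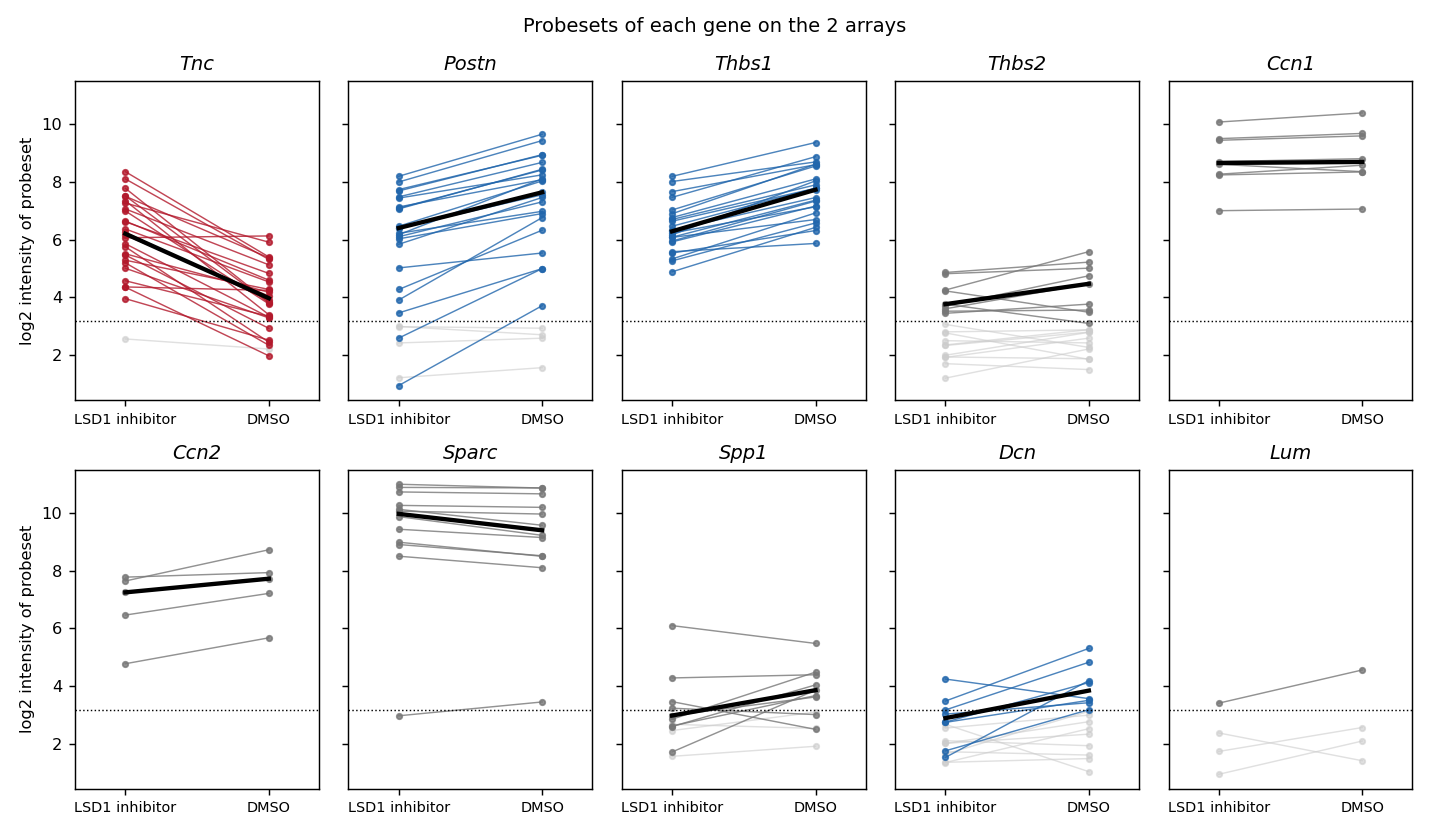
Log2 intensity of every probeset of the 10 genes (vertical axis), with the LSD1 inhibitor array left and the DMSO array right in each panel; each thin line is 1 probeset, pale where both values are below the dotted line at 3.17, and the thick black line joins the gene's levels where at least 4 probesets are bright. Red and blue mark genes higher and lower past the size rule: the lines of Tnc run down towards DMSO, those of Postn and Thbs1 run up towards it, and most lines of Dcn and Spp1 lie close to the dotted line.

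Tenascin C, a large glycoprotein that loosens cell adhesion, was 4.36-fold higher with the inhibitor. Tnc stood at 6.21 on the inhibitor array and 3.97 on the DMSO array, a difference of 2.12 (SD 1.04 over 26 bright probesets). Of these probesets 25 were higher and 24 were higher by at least 1. By size of difference Tnc ranked 24 among the 15087 measured genes, counted from the top. Its bright probesets ran between 3.96 and 8.36 with the inhibitor and between 1.98 and 6.13 with DMSO, so every one was above the table's median with the inhibitor while 5 were below it with DMSO. The signal of Tnc was thus low but mostly above the median without the inhibitor.

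The probesets of Tnc did not all differ alike. The interquartile range of their differences was 1.51 to 2.84, and the largest was 3.95. One probeset read 6.07 with the inhibitor and 6.13 with DMSO, and another 4.36 with the inhibitor and 4.25 with DMSO. These 2 stand apart from the other bright ones, whose smallest difference was 1.01. The 1 dim probeset of Tnc differed by 0.35. The files give no exon or position for a probeset, so whether the 2 belong to particular exons was not analysed here.

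Periostin, a fasciclin-domain protein of collagen-rich and mesenchymal tissue, was 2.51-fold lower with the inhibitor. Postn stood at 6.41 on the inhibitor array and 7.65 on the DMSO array, a difference of -1.32 (SD 0.60 over 23 bright probesets). All 23 were lower with the inhibitor, between -2.86 and -0.52, and 18 were lower by at least 1. Their interquartile range was -1.60 to -1.17, so most probesets gave a similar size. Of the 6 probesets under the clone symbol only 2 were bright, and without the 6 the difference was -1.26. Postn ranked 35 among the measured genes, counted from the lowest difference.

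Thrombospondin 1, a multidomain glycoprotein that restrains angiogenesis and can activate latent TGF-beta, was 2.44-fold lower. Thbs1 stood at 6.29 on the inhibitor array and 7.74 on the DMSO array, a difference of -1.28 (SD 0.37 over 23 probesets). All 23 of its probesets were bright, and all were lower, between -1.87 and -0.29. It ranked 39 from the lowest difference, close to Postn. Its relative Thbs2, which shares the antiangiogenic repeats, stood at 3.77 with the inhibitor and 4.47 with DMSO, with a difference of -0.32 (SD 0.71). Only 9 of the 20 probesets of Thbs2 were bright, 7 of them lower, and their differences ran between -1.33 and 0.74. The ranges of the probeset differences of Thbs1 and Thbs2 overlap, and the contrast between both genes was not tested.

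**Figure D2:**
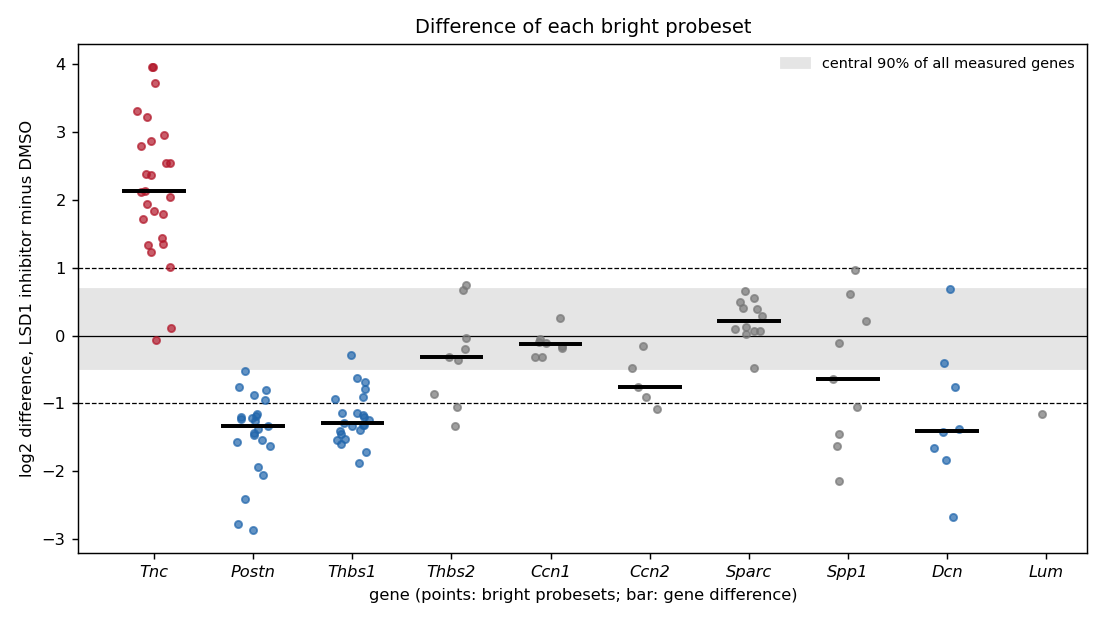
Difference of each bright probeset (points; vertical axis, log2, LSD1 inhibitor minus DMSO) for the 10 genes, with the gene difference as a black bar where the gene was measured; the grey band spans the central 90% of gene differences, -0.50 to 0.68, and dashed lines mark a 2-fold difference. All but 1 point of Tnc lie above 0, all points of Postn and Thbs1 lie below it, and those of Spp1 spread on both sides.

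The CCN proteins, integrin ligands that answer to YAP, serum response factor and TGF-beta, did not pass the size rule. Ccn1 was at 8.66 with the inhibitor and 8.70 with DMSO, a difference of -0.13 with a narrow spread (SD 0.18 over 8 probesets, 7 lower). Ccn2 was at 7.25 with the inhibitor and 7.73 with DMSO, a difference of -0.75 (SD 0.36), which is 1.68-fold lower. All 5 of its probesets were lower, between -1.08 and -0.16, and the gene lay outside the central 90% of genes. The probeset ranges of both genes overlap between -0.32 and -0.16. At a 1.5-fold threshold Ccn2 joined Postn, Thbs1 and Dcn, which made 4 lower members, where 2.66% of all measured genes were lower, and Tnc was still the 1 higher member, where 5.85% were higher.

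SPARC, a collagen-binding protein also called osteonectin, was at 9.97 with the inhibitor and 9.40 with DMSO. The median difference of its 12 probesets was 0.21 (SD 0.31), with 11 higher, inside the central 90% of genes. The single lower probeset of Sparc read 2.97 with the inhibitor and 3.45 with DMSO and had the lowest values of the set. Osteopontin, the integrin ligand encoded by Spp1 and known from bone and macrophages, was at 2.98 with the inhibitor and 3.86 with DMSO. Its difference of -0.64 carried the widest spread of the members (SD 1.07 over 9 bright probesets, 6 lower), between -2.14 and 0.96. The brightest probeset of Spp1 read 6.10 with the inhibitor and 5.48 with DMSO, opposite to the gene's median.

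Decorin, a proteoglycan that binds collagen and TGF-beta, was lower past the size rule on dim values. Dcn stood at 2.89 on the inhibitor array and 3.85 on the DMSO array, a difference of -1.40 (SD 1.01), with 7 of 8 bright probesets lower. The inhibitor value of 5 of the 8 lay below the table's median, and the other 9 of its 17 probesets were below it on both arrays. Those 5 were bright through the DMSO array alone, so the filter itself favours a lower difference here. With values below the median raised to it the difference was -0.65, and over all 17 probesets it was -0.76, so Dcn passed the rule in neither case. Lumican, its neighbour in structure and function, was not measured. The 1 bright probeset of Lum out of 4 read 3.41 with the inhibitor and 4.56 with DMSO, and of the 3 dim ones 2 were lower and 1 was higher.

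Other genes of both families gave few calls. Of 15 other small leucine-rich proteoglycan genes, 9 were measured, with none higher and 2 lower past the size rule and a median of -0.20. The lower ones were Ogn, which encodes osteoglycin and stood at 2.63 with the inhibitor and 3.82 with DMSO (-1.24, 7 of 7 probesets lower), and Aspn, asporin, at 4.27 with the inhibitor and 4.65 with DMSO (-1.09). Ecm2 differed by -0.50. The inhibitor level of Ogn was below the table's median. With dim values raised to that median none of the list passed, with Ogn at -0.62 and Aspn at -0.58, and neither did Dcn. Ogn passed in 9 of 11 other settings and Aspn in 8 of 14, some of which left the value of the gene as it was. Aspn was at -0.16 with its brighter probesets alone. Of 23 other matricellular genes, 21 were measured and none passed the size rule, with a median of -0.04 that was 0.01 after quantile normalization. Ccn4 (-0.52), Fbln1 (0.52), Spon1 (-0.48) and Spon2 (-0.42) differed most in that list.

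Receptors showed no difference past the size rule. Of 23 genes for integrins and other receptors of these ligands, 21 were measured, with a median of -0.02 that was 0.01 with each array centred on its median. The widest differences were those of Met (0.75), the laminin receptor subunit gene Itga6 (0.67), Tlr4 (0.65), which also binds tenascin C, and Egfr (-0.65). None of 14 measured genes of the YAP and TEAD pathway passed the rule, with Tead2 at 0.76, Wwtr1, which encodes TAZ, at 0.60 and Mob1b at -0.47, and a median of 0.25. None of 19 measured YAP targets other than Ccn1 and Ccn2 did either, with Igfbp3 at -0.73, Crim1 at -0.71, Gadd45a at -0.48 and Myof at -0.47, and a median of -0.04.

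The same held for 15 measured genes of TGF-beta ligands, latency and targets. Tgif1 differed by 0.69, Pmepa1 by -0.41, fibronectin gene Fn1 by 0.39 in 47 of 47 probesets and Tgfb2 by -0.34, with a list median of -0.13. It held as well for 15 genes of the serum response factor group, with Vcl at -0.45, Fhl2 at 0.43 and Fos at -0.37, and a median of 0.06 that was -0.03 with a level-dependent trend removed. Among 19 measured fibrillar collagens and partners the median was -0.07 and none passed, with Col12a1 at -0.76, Loxl2 at -0.64, Loxl1 at -0.57 and Bmp1 at 0.47.

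Matrix proteases held 2 higher genes and none lower among 17 measured. Mmp2, which encodes gelatinase A, stood at 7.39 with the inhibitor and 5.77 with DMSO, a difference of 1.44 in 13 of 13 probesets, and at 0.94 with even-ranked probesets alone. Mmp14, which encodes the membrane protease that activates gelatinase A, stood at 6.83 with the inhibitor and 5.91 with DMSO, a difference of 1.18 in 12 of 13 probesets. The list median was -0.04, with Mmp13 at -0.75 and Mmp3 at 0.67. Tnc, Mmp2 and Mmp14 were thus the higher genes among all those named in these lists and the members.

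**Figure D3:**
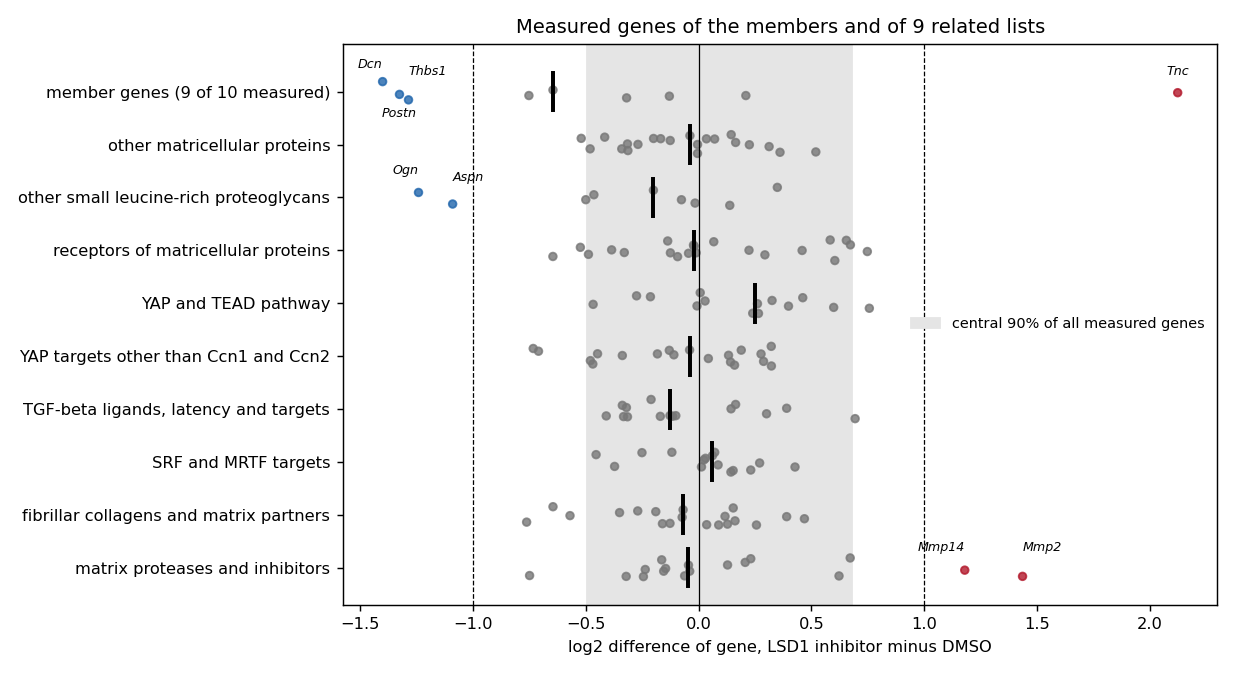
Log2 difference of each measured gene, LSD1 inhibitor minus DMSO (horizontal axis), for the members and 9 related lists; black bars are list medians, the grey band spans the central 90% of all measured genes, dashed lines mark a 2-fold difference, and red and blue points passed the size rule. Tnc, at 2.12, lies furthest right, Mmp2 and Mmp14 are the other red points, and Dcn, Postn, Thbs1, Ogn and Aspn are the blue ones.

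Markers of the cell types the sort could hold were read beside the members. The lowest median among these marker lists was that of the erythroid markers, of which 9 of 12 measured were lower and none higher (median -1.28, summed linear intensity 3643 with the inhibitor and 11151 with DMSO). A summed intensity is set mostly by the brightest genes of a list, here the globin genes Hba-x, Hbb-y and Hbb-bh1, and does not speak for the list as a whole. The part of the erythroid markers in the lower values of Postn, Thbs1 and Dcn was not tested. Of 14 fibroblast and mesenchyme markers, 11 were measured and none passed the size rule, with a median of -0.15. The summed intensity of these markers was 256 with the inhibitor and 296 with DMSO. Pdgfrb (-0.82) and Pdgfra (-0.57) were the lowest of these markers, Col1a1 was at -0.13, and Dpt, Tcf21 and Twist1 were not measured. Of the 11 differences, 8 were below 0 and 3 above, the highest that of Thy1 (0.25). The part of these markers in the lower values of Postn and Dcn was not tested. None of 10 measured smooth muscle and pericyte markers passed the rule (median 0.09, summed intensity 2156 with the inhibitor and 2762 with DMSO), nor did any of 6 bone and cartilage markers. The smooth muscle sum follows mainly Acta2 (-0.41), the brightest of that list.

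Thbs1, whose product is known from platelet granules, was set beside markers of megakaryocytes and platelets, and its other possible sources were not tested. Of 17, 11 were measured and 2 were lower, Pf4 (-2.29) and P2rx1 (-1.66), with a median of -0.29 and a summed intensity of 419 with the inhibitor and 596 with DMSO. Gp1ba, Gp5, Gp9, Ppbp and F2rl2 were among those not measured. Endothelial markers, set beside Tnc, had 7 of 13 measured members higher and none lower, with a median of 1.25 and a summed intensity of 3040 with the inhibitor and 1223 with DMSO. Of 8 measured macrophage markers, set beside Spp1, Lyz2 (1.77) and Mrc1 (1.49) were higher past the size rule and none was lower past it. The list median was 0.11, with 5 differences above 0 and 3 below, the lowest that of C1qb (-0.55). The part of these cell types in the differences of Thbs1, Tnc and Spp1 was not tested.

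The calls of Tnc, Postn and Thbs1 did not rest on 1 way of processing. Tnc lay between 1.94 and 2.38 over 14 other settings and passed the size rule in all 14. Postn lay between -1.54 and -1.22 over 15 and Thbs1 between -1.38 and -1.21 over 14, and both passed in each. Several settings hardly act on bright genes. Thbs1 kept its -1.28 with no filter on dim probesets, with the 75th percentile filter and with dim values raised. All settings used the same 2 arrays, so they are not independent support. Dcn passed in 11 of 13, and Spp1 changed sign between parts of its probesets, with 0.22 over odd-ranked and -1.25 over even-ranked ones. Some of the settings counted could not move the calls. Tnc, Postn, Thbs1 and Dcn kept their values with at least 1 or 8 bright probesets and with no direction rule. They also kept them with probesets naming several genes included.

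**Figure D4:**
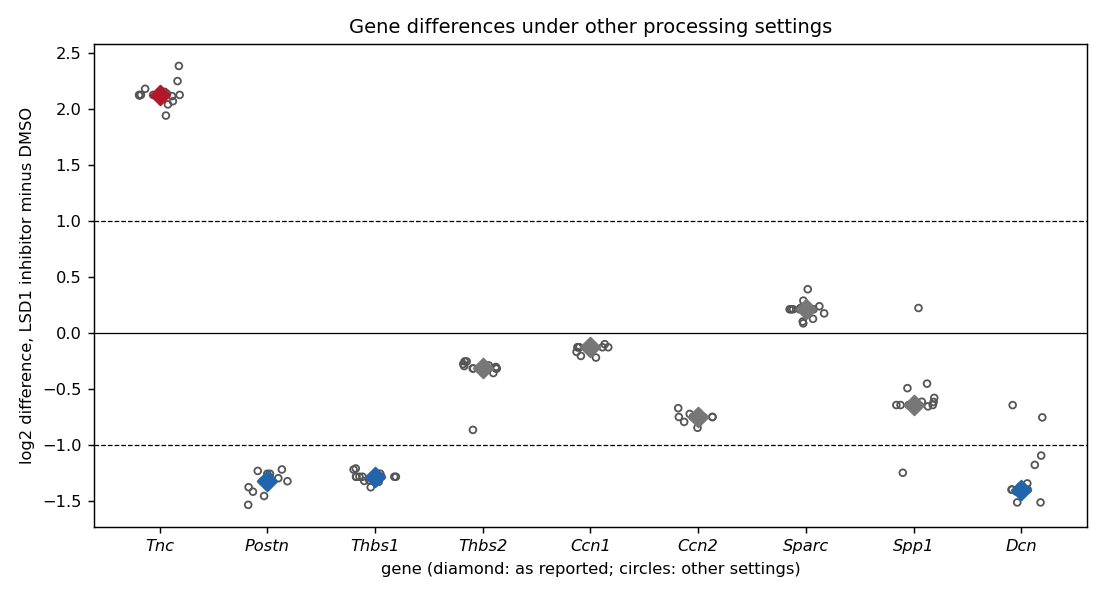
Log2 difference of each measured gene, LSD1 inhibitor minus DMSO (vertical axis), as reported (diamonds, red or blue where the gene passed the size rule) and under other processing settings (open circles); dashed lines mark a 2-fold difference. Circles of Tnc, Postn and Thbs1 stay beyond a dashed line, those of Dcn lie between -1.51 and -0.65, and those of Spp1 lie on both sides of 0.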

How the data were processed

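Total RNA of the CD41-sorted cells was isolated with a column kit, and single-stranded cDNA was labelled with biotin for the arrays, per the labels' protocols. The deposited values, 1 for each probeset on each array, were read as log2 intensity from their range of 0.16 to 13.5. How they were summarised and normalized is not given in the sources used here. When sorted, both arrays differ by at most 0.085, as after quantile normalization. The table fills 1048576 lines, a common spreadsheet limit, so probesets beyond it were not analysed here. It has no detection call.

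Groups were taken from the sample titles. Probesets were named through a platform annotation, 270105 with 1 symbol, and older symbols were updated through RefSeq synonyms of GRCm38.p6 (4167 of 22133). Values were used unscaled in Python 3.11.15 with pandas 2.3.3. The calling rule was also run on simulated data. Changes were put there only into genes with DMSO levels above those of Tnc, Dcn, Ogn and Aspn. They were larger than the differences of Postn, Thbs1, Mmp2 and Mmp14, so that run does not cover the calls of these genes. With 1 array per group no test was run. Members, lists and rules were chosen with earlier results of these data known. The text names all members and, of each related list, every gene past the size rule and the 3 with the largest differences (4 in lists of over 15 genes); cell type markers were named for context. Alternatives covered scaling, dim values, the summary over probesets, the number and part of probesets, and the thresholds.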

Additional observations from a re-analysis of the deposited data

How the results depend on the processing

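The count of higher members was 1 in every setting run. The count of lower members lay between 2 and 4 in every setting except the 3-fold threshold, where it was 0. The median difference of the members, -0.64, was -0.44 with the filter at the 75th percentile (6 members measured), -0.48 with at least 8 bright probesets (8 members), -0.45 with dim values raised to the median of the table, -0.76 with the brighter bright probesets of each gene (8 members) and -0.28 with odd-ranked probesets alone (8 members). These settings, apart from the raised dim values, left fewer members. The reported median is the value of Spp1 itself, which was also the median, -0.45, with dim values raised. Spp1, Thbs2 and Dcn were not measured with the 75th percentile filter, and Ccn2 was not measured in those with 8 members. The sign of Spp1 turned to 0.22 with odd-ranked probesets. Lum was at -1.15 where 1 bright probeset sufficed and at -0.99 where dim ones were kept. Over all genes, 641 were higher and 439 lower when 1 bright probeset sufficed, against 259 and 85 as reported. Dim signal limits Dcn, Lum, Spp1 and Thbs2. The setting for the clone-named probesets of Postn was chosen after seeing the data. No paired analysis was possible because each group has 1 array.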
